A study of Mus musculus with 16 samples.

Results

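Gene expression in wild-type blood progenitors was set against that in the wild-type Flk1+ mesoderm from which they were grown, so that the net change over the whole course from mesoderm to blood progenitor could be described. The comparison rests on 4 of the 16 arrays of the series, the 2 Sp1 +/+ progenitor arrays and the 2 Sp1 +/+ Flk1+ arrays. A further 4 Sp1 +/+ arrays, 2 of HE1 and 2 of HE2 cells, entered the same model and were otherwise used to say at which step a gene changed. The members of the comparison were chosen by their labels (genotype and population) and by no measured value.

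All cells came from 1 wild-type line of mouse ES cells, labelled E14, with both Sp1 alleles intact and no other allele or transgene named. Flk1+ cells were taken from embryoid bodies with an antibody to Flk1 (KDR) on magnetic columns. They were then plated in blast medium, which holds VEGF, IL-6, ascorbic acid and medium conditioned by an endothelial line, and the floating and adherent cells of that culture were pooled and sorted by flow cytometry. HE1 cells (hemogenic endothelium, KIT+ CD41- Tie2+), HE2 cells (KIT+ CD41+ Tie2+) and progenitors (KIT+ CD41+ Tie2-) therefore came from cultures of the same age, and the order Flk1+, HE1, HE2, progenitor is one of surface markers and not of sampling times. Flk1+ cells differ from the other 3 populations in the culture, in the way they were isolated and in their identity, and these cannot be told apart. The 2 samples of a group are described by the submitters as biological replicates but in one legend of the study as technical ones, so the p-values measure the spread between these samples, which may be technical. In these bulk samples fewer cells of a type and less RNA per cell cannot be told apart either.

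In the embryo and in culture, Flk1+ mesoderm gives rise to an endothelium with blood-forming capacity, and cells leave that endothelium by an endothelial-to-hematopoietic transition in which RUNX1 and its target GFI1B silence the endothelial program. Mesoderm itself is laid down at the primitive streak under Wnt, BMP, FGF and Nodal signals, through T-box factors such as Brachyury and Eomes and through MESP1. Progenitors that carry KIT and CD41 can form red cells, megakaryocytes and myeloid cells, lineages which depend on GATA1 with KLF1, on GATA1 with FLI1 and NFE2, and on PU.1 (Spi1) with C/EBP factors, respectively.

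The labels were checked against the genes whose proteins the sorts used, which are for that reason no finding. Values are the deposited normalized log2 intensities, on which a difference of 1 is a 2-fold difference, and they compare a gene between arrays but not one gene with another. Kit read 9.91 and 11.04 in Flk1+ cells, 12.31 and 11.59 in HE1, 13.28 and 12.75 in HE2, with progenitors at 13.21 and 12.89. Itga2b, which encodes CD41, read 7.37 and 8.30 in Flk1+ cells, 10.61 and 10.60 in HE1, 12.21 and 11.95 in HE2, with progenitors at 11.92 and 11.41. Both were higher in both progenitor arrays than in both Flk1+ arrays, and the step for Itga2b between HE1 and HE2 has the direction of the gates. Tek (Tie2) read 7.16 and 8.15 in Flk1+ cells, 12.34 and 12.50 in HE1, 10.52 and 11.45 in HE2, with progenitors at 9.62 and 8.40, so that it was highest in HE1, and progenitor replicate 1 was 2-fold or more above progenitor replicate 2. Kdr (Flk1) read 14.70 and 14.58 in Flk1+ cells, 15.05 and 15.19 in HE1, 13.53 and 14.21 in HE2, with progenitors at 13.03 and 12.36. On this probe it was lower in progenitors but well above background on every array. A second Kdr probe averaged 13.92 in Flk1+ cells and 13.66 in progenitors, so the probes disagree. Its difference was -0.255 (limma adjusted p over probes = 0.344). The scanner found no saturated spot on any of the 8 arrays, and 67.0 to 72.4% of spots were well above background. All 8 arrays lie on 1 slide, with the population set by the slide column and the replicate by the row, so column and population cannot be told apart. Replicates correlated at 0.9939 to 0.9971 over all genes, and Flk1+ arrays with progenitor arrays at 0.962 to 0.971. Only 2 arrays per group limit the precision of every value.

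To give the sequence context of the groups below, promoters were read from RefSeq (assembly GRCm38.p6) as the 250 bases before the annotated start, on the strand of the gene, and searched on both strands for 5 short motifs. The GATA factors are represented by the letters GATAAG, and the ETS factors, such as PU.1, FLI1 and ETV2, by AGGAAG. RUNX factors are represented by TGTGGT, the TCF/LEF partners of beta-catenin by CTTTGA, and Sp factors by the GC box GGGGCGG. No motif is contained in another, and 15924 of the 37011 genes tested had a promoter under their symbol. The 7 promoters shown were picked because they belong to genes the results turn on and hold the motif named, which stands in capitals in either orientation. The first set, with GATAAG or its complement CTTATC, belongs to genes of the red cell lineage that rose. They are Klf1 (chr8:84901732-84901981, + strand), Gfi1b (chr2:28621983-28622232, - strand) and the adult alpha-globin gene Hba-a2 (chr11:32296242-32296491, + strand).
Klf1: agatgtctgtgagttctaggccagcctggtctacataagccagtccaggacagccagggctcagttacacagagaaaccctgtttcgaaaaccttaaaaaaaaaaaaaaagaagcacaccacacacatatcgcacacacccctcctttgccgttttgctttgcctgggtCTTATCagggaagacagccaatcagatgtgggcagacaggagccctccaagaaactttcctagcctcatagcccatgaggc
Gfi1b: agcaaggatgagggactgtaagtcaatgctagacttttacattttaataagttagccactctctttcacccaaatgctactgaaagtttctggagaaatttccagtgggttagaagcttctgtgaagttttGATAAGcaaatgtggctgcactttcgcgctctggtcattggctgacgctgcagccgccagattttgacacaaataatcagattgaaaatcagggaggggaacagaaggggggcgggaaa
Hba-a2: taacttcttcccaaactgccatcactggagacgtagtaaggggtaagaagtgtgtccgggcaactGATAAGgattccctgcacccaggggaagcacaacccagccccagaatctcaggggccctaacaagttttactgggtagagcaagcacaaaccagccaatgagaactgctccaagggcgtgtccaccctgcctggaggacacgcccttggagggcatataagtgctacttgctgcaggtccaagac
The second set, with AGGAAG or CTTCCT, belongs to genes of white cells that rose at every step, the signaling protein gene Vav1 (chr17:57278850-57279099, + strand) and the chemokine gene Ccl6 (chr11:83593088-83593337, - strand).
Vav1: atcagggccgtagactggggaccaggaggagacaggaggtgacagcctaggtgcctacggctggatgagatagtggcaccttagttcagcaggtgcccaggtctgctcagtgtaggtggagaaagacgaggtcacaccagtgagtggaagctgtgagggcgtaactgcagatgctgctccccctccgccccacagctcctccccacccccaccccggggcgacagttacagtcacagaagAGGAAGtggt
Ccl6: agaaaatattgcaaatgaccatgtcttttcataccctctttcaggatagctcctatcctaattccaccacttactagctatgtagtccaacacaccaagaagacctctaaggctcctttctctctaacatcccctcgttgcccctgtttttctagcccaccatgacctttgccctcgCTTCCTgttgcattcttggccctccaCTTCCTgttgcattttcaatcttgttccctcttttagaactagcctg
The third set, with CTTTGA or TCAAAG, belongs to genes that fell early, the mesoderm regulator Mesp1 (chr7:79793591-79793840, - strand) and the Wnt target Sp5 (chr2:70474673-70474922, + strand).
Mesp1: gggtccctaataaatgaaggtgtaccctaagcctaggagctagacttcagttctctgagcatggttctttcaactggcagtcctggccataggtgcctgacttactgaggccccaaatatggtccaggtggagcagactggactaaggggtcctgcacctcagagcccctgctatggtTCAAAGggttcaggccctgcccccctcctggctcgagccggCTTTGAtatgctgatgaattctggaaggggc
Sp5: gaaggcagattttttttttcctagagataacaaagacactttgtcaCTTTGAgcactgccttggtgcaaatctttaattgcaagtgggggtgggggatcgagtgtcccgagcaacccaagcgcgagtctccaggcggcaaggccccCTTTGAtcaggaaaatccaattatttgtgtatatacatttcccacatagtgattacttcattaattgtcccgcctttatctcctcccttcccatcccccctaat
A match is a description of these letters and not evidence of binding. Over all 15924 promoters the GATA motif was present in 5.82%, the ETS motif in 28.2%, the RUNX motif in 11.9%, the TCF/LEF motif in 13% and the GC box in 30.4%. The ETS motif was present in 35.3% of 1073 promoters of genes higher in progenitors and in 23.6% of 950 promoters of genes lower in progenitors. For the GC box the shares were 36.1% and 43.8%, and for the GATA motif 7.27% and 5.16%. Among genes higher by at least 4-fold the ETS share was 40% of 375 promoters, and among genes lower by at least 4-fold the GC box share was 49.8% of 317. These shares were not tested.

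Genes rose and fell in nearly equal number between mesoderm and progenitor. Of 37011 genes tested, 1576 were higher in progenitors (4.26%) and 1569 were lower (4.24%), 3145 in all (8.5%), at an adjusted p of 0.05 or less (limma, Benjamini-Hochberg over all genes tested) and a change of at least 2-fold. The change was at least 4-fold for 554 and 512 of them and at least 16-fold for 111 and 70. The median difference over all genes was -0.015 on the log2 scale, with a median SE of 0.12. Both progenitor arrays lay above both Flk1+ arrays in 26.6% of genes and below both in 31.3%. These shares, and the 4.26% and 4.24% called, are the base against which the counts of each list below stand.

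**Figure D1:**
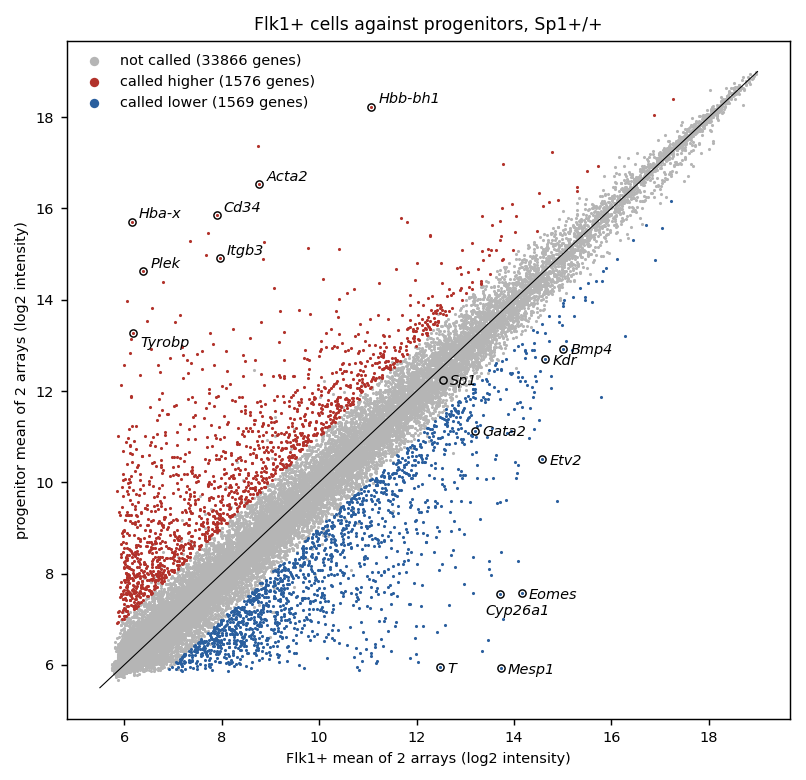
Mean log2 intensity of each gene in the 2 progenitor arrays (vertical axis) against that in the 2 Flk1+ arrays (horizontal axis), with called genes colored and some named. The 1576 higher and 1569 lower genes lie on either side of the diagonal, with Hba-x, Plek and Cd34 among the farthest above it and Mesp1, Eomes and T among the farthest below.

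The first step, from Flk1+ cells to HE1, held the largest part of the change for most called genes. Among the 1576 genes that rose over the course, the largest rise came at Flk1+ to HE1 for 890 (56.5%), at HE1 to HE2 for 343 and at HE2 to progenitor for 343. Among the 1569 that fell, the largest fall came at the first step for 1069 (68.1%), at the second for 418 (26.6%) and at the last for 82. Taken as comparisons of their own, the 3 steps called 3152 genes (8.52%), 1013 (2.74%) and 281 (0.759%). At the first step 1710 rose (4.62%) and 1442 fell (3.9%), at the second 369 rose (0.997%) and 644 fell (1.74%), and at the last 229 rose (0.619%) and 52 fell (0.14%). The change of 515 risers and 483 fallers could not be placed, since they passed the test at no single step. The counts at the later steps changed most when an array was left out, running from 390 to 1308 at HE1 to HE2 and from 61 to 395 at HE2 to progenitor.

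**Figure D2:**
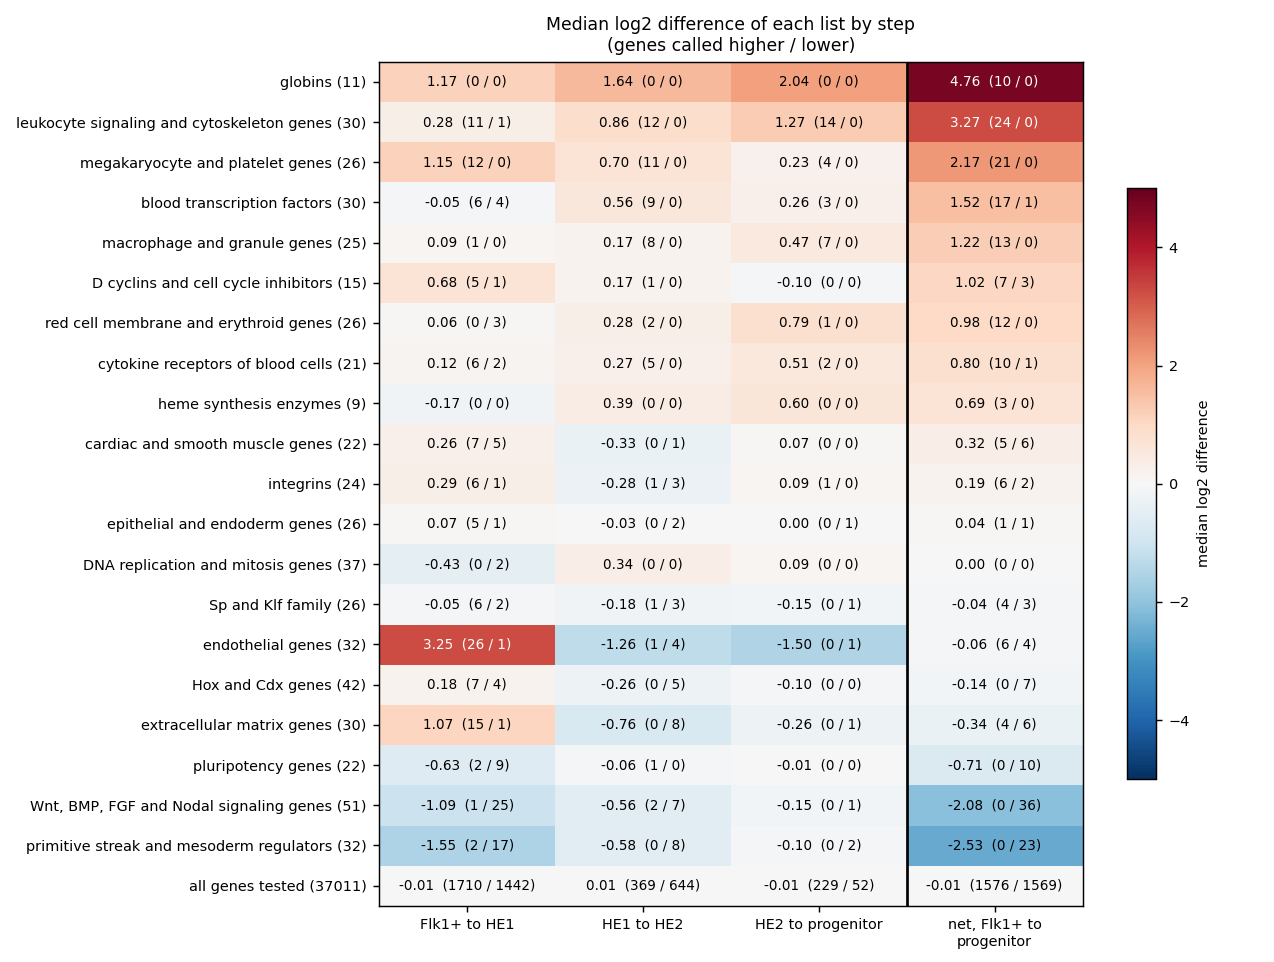
Median log2 difference of each gene list at each step and over the whole course, with the number of members called higher and lower written in each cell. Lists of mesoderm and signaling genes had most of their called falls at the first step, macrophage genes all but 1 of their calls at the later steps, leukocyte genes at all 3, and globins at none of them, while endothelial genes were mostly called higher at the first step and had negative medians at the later ones.

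Regulators of the primitive streak and of early mesoderm formed the group with the deepest fall. Of 32 tested, 23 fell and none rose (4.24% of all genes fell), and the median change was -2.53 against -0.015 over all genes. Mesp1, which directs early mesoderm to migrate and to form heart and vessels, read 14.57 and 12.89 in Flk1+ cells and 5.92 and 5.94 in progenitors. Its signal was not well above background on either progenitor array, and the difference was at least 208-fold (adjusted p = 7.34e-05). Such bounds, here and below, allow for the dim signal of 1 population but not for the spread between replicates. T (Brachyury), the founding T-box factor of the streak, read 12.82 and 12.14 in Flk1+ cells and 5.93 and 5.96 in progenitors, at least 87.4-fold lower (adjusted p = 1.06e-05). The groups were far apart for both genes, and both were already at their low level in HE1, where Mesp1 read 6.05 and 6.38 and T read 5.99 and 6.23. Eomes, a T-box factor upstream of Mesp1, read 14.67 and 13.65 in Flk1+ cells and 7.51 and 7.62 in progenitors and fell by 6.60 ± 0.30 (SE; adjusted p = 2.79e-05). Evx1, a streak homeobox gene, fell by 6.77 ± 0.32 from 14.14 and 13.41 to 7.19 and 6.83 (adjusted p = 3.05e-05). Mixl1 and Gsc, homeobox genes of the streak and its anterior end, were lower by at least 34.3-fold and 27.7-fold. All of these had lost the greater part of their signal by HE1.

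Other mesoderm genes fell later or in several steps. The zinc finger genes Gata4 and Gata6, which act in heart and endoderm, and Twist1, a bHLH factor of mesenchyme, were not called between Flk1+ cells and HE1 and fell between HE1 and HE2. Gata4 read 12.39 and 12.01 in Flk1+ cells, 12.17 and 12.37 in HE1, 9.77 and 10.84 in HE2, with progenitors at 9.23 and 8.16, a net fall called at -3.51 ± 0.43 (adjusted p = 0.00146). Gata6 fell by 3.67 and Twist1 fell by 2.65. Etv2, the ETS factor that opens the blood and endothelial program in Flk1+ mesoderm, read 14.72 and 14.44 in Flk1+ cells, 11.42 and 11.29 in HE1, 11.59 and 11.66 in HE2, with progenitors at 10.48 and 10.53. It fell at the first step by 3.23 (adjusted p = 2.43e-05) and again at the last by 1.12 (adjusted p = 0.0103), with no overlap between Flk1+ and progenitor arrays. Tcf15, a bHLH factor of somitic mesoderm, read 9.71 and 10.42 in Flk1+ cells and 9.91 and 9.77 in HE2, then 8.02 and 7.13 in progenitors, a fall of which only the last step was called (adjusted p = 0.0384). Snai1, which drives the epithelial-to-mesenchymal transition at the streak, fell by 4.32, while the change of its relative Snai2 was 0.15 (adjusted p = 0.917). Pdgfra, the receptor that marks paraxial mesoderm, fell by 4.70. Hand1, Hand2, Tbx3, Tbx20, Isl1, Foxf1, Foxh1, Lhx1 and Mesp2 also fell, with changes of -1.89 (Mesp2) to -5.29 (Tbx3). The call for Lhx1 was lost without progenitor replicate 2 (-2.31) and that for Mesp2 without any 1 of the HE1, HE2 or progenitor arrays (-1.92 to -1.86). Members that did not pass were Tbx6 (-0.07), Msgn1 (-0.96), Foxc1 (-0.09), Foxc2 (-1.27), Meox1 (-0.50), Osr1 (-0.19), Nkx2-5 (-1.45), Prrx1 (-0.25) and Snai2. A second Tbx6 probe differed by -2.72 (adjusted p over probes = 0.00284), so that the probes of this gene disagree. Of these Foxc2 and Nkx2-5 were called higher at the first step and lower at the second.

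**Figure D3:**
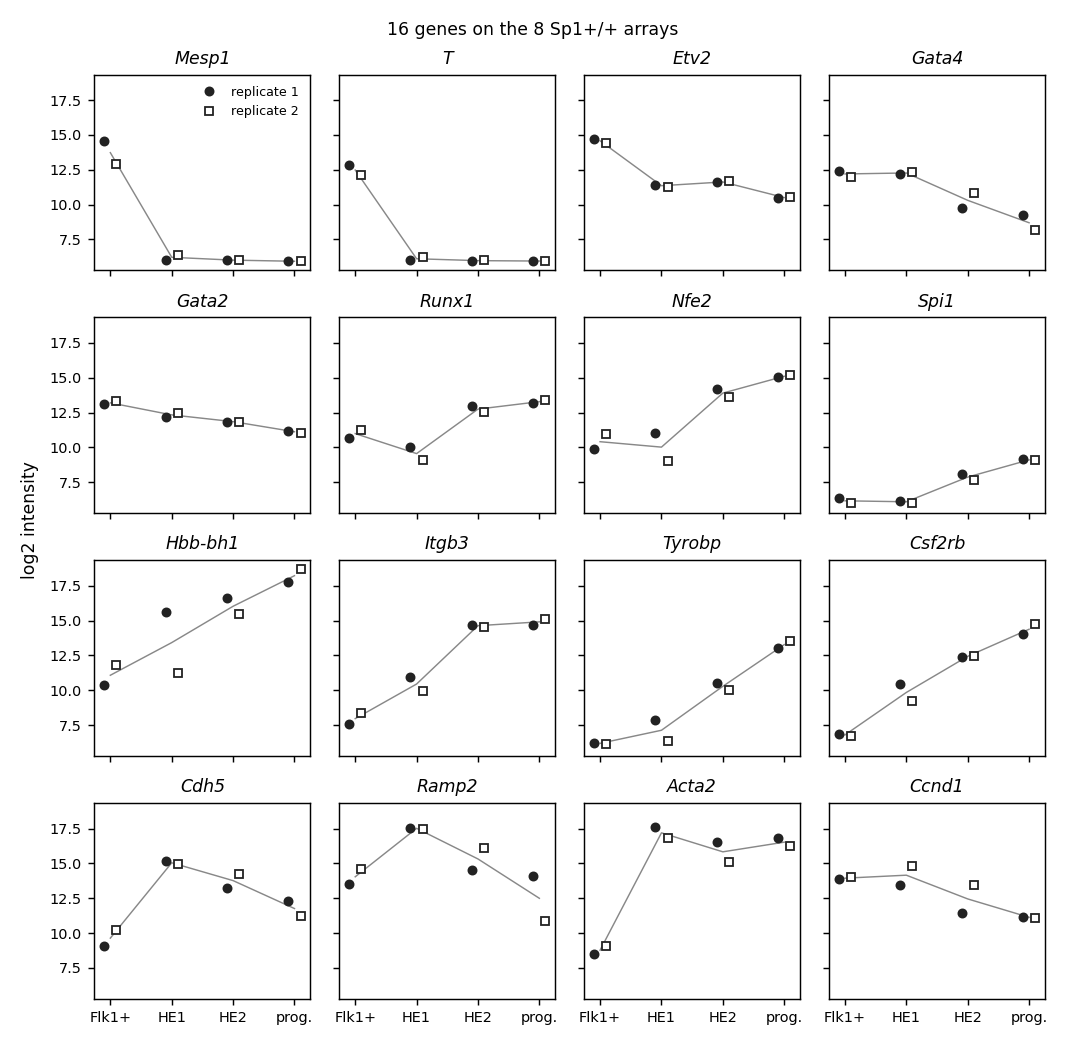
Log2 intensity of 16 genes on the 8 arrays, by population from Flk1+ cells to progenitors, with replicate 1 as a filled circle, replicate 2 as an open square and a line through the means. Mesp1 and T drop at the first step, Gata4 at the second, Tyrobp, Csf2rb and Itgb3 are highest on the progenitor arrays, and Cdh5 and Ramp2 peak in HE1.

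Genes of the Wnt, BMP, FGF and Nodal pathways fell with the streak regulators. Of 51 tested, 36 fell (4.24% of all genes) and none rose, with a median change of -2.08. At the first step 25 were called lower (3.9% of all genes). Among Wnt ligands, Wnt3, which the embryo needs to form a streak, read 11.55 and 10.99 in Flk1+ cells and 7.28 and 7.19 in progenitors and fell by 4.04 ± 0.18 (adjusted p = 2.49e-05). Wnt5b fell by 4.39 and Wnt5a fell by 2.90, and Wnt11 fell by 1.26, a call that was lost without Flk1+ replicate 1 or progenitor replicate 2 (-1.17 to -1.15). The change was 1.65 for Wnt4 (adjusted p = 0.0765). Targets and effectors of the pathway fell as well. Sp5, a zinc finger gene that beta-catenin switches on, read 12.93 and 11.15 in Flk1+ cells and 6.15 and 5.99 in progenitors, at least 60.5-fold lower (adjusted p = 0.000277), and its promoter is among those printed above. Axin2, the feedback scaffold of the destruction complex, fell by 3.52 ± 0.12 (adjusted p = 1.13e-05). Lef1 fell by 3.47, Tcf7 fell by 3.06, the secreted inhibitor gene Dkk1 fell by 5.71 and the receptor gene Fzd7 fell by 3.03. Cyp26a1, which degrades retinoic acid and was listed here as a gene of posterior mesoderm, read 14.03 and 13.41 in Flk1+ cells, 10.86 and 11.36 in HE1, 7.69 and 9.52 in HE2, with progenitors at 8.04 and 7.08. Its net change was -6.16, and of the steps the first was called (-2.61), while the next just missed (adjusted p = 0.0503). Of 32 promoters of the list, 4 held the TCF/LEF match (12.5%, against 13% of all) and 17 the GC box (53.1%, against 30.4% of all).

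Among BMP genes, the ligands Bmp7, Bmp4 and Bmp2 fell by 5.30, 2.08 and 1.62, the last of these with a call only at the step from HE2 to progenitor (adjusted p = 0.0151). Bmp5 was at least 4.41-fold lower. The targets Msx1 and Msx2 fell by 4.80 and 3.54, and Id3, which restrains bHLH factors, read 14.26 and 14.37 in Flk1+ cells, 14.21 and 14.81 in HE1, 12.71 and 13.73 in HE2, with progenitors at 11.52 and 10.44, a net change of -3.34 ± 0.44 (adjusted p = 0.00197). No single step was called for Id3. Id1 stood at the 2-fold threshold with -1, and its call was lost without either Flk1+ array or without progenitor replicate 2 (-1.03 to -0.74). The inhibitor genes Smad7 and Smad6 fell by 1.34 and 1.21, the latter call being lost without progenitor replicate 2 (-0.99), and Fst, which encodes the activin antagonist follistatin, fell by 4.69. Among FGF genes, Fgf8, the main FGF ligand of the streak, read 11.61 and 11.09 in Flk1+ cells and 7.19 and 6.86 in progenitors, a change of -4.33 ± 0.19 (adjusted p = 2.66e-05). Fgf15 fell by 4.51, the receptor gene Fgfr1 fell by 1.86, and the ETS genes Etv4 and Etv5, which read out FGF activity, fell by 3.61 and 4.11. Spry4 was lower by at least 4.44-fold, but not without Flk1+ replicate 1 or progenitor replicate 2, and Dusp6 fell by 1.60, a call lost in 5 of the 8 omissions of an array.

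A pair of FGF ligand genes fell and then partly recovered. Fgf3 read 12.09 and 12.36 in Flk1+ cells, 6.91 and 6.95 in HE1, 8.59 and 8.43 in HE2, with progenitors at 8.95 and 8.73, with a fall of 5.30 at the first step and a rise of 1.58 at the second (adjusted p = 8.16e-06 and 0.00354). Fgf10 read 11.51 and 11.14 in Flk1+ cells, 8.97 and 8.06 in HE1, 10.59 and 10.33 in HE2, with progenitors at 10.44 and 10.09, called in the same directions at these steps, while its net fall of 1.06 was lost in 6 of the 8 omissions. Both genes were lowest in HE1. Lefty2, a Nodal antagonist, fell by 2.42, a call lost without either progenitor array, and the difference for Nodal itself was -0.66, under 2-fold (adjusted p = 0.00366). Aplnr, the apelin receptor gene of mesoderm that migrates, fell by 2.86, Rspo3 fell by 2.04 and Tcf7l1 fell by 2.63. Sfrp2 fell by 1.82, but not without any 1 of the Flk1+ or progenitor arrays (-2.03 to -1.61). In all 15 members did not pass, among them Wnt2 (-0.77), Wnt9a (0.63), Spry2 (-0.84), Id2 (-0.66), Nog (-0.66), Bambi (-1.19) and Apln (-0.29), and Wnt3a, Lefty1 and Cer1 differed by at most 0.12.

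Genes of pluripotent and epiblast-stage cells that were still read in Flk1+ cells were low in progenitors. Of 22 tested, 10 fell (4.24% of all genes) and none rose, with a median of -0.71. Pou5f1, the pluripotency factor OCT4, read 10.31 and 9.33 in Flk1+ cells and 6.56 and 6.55 in progenitors, with 6.46 and 6.62 in HE1 and 6.57 and 6.59 in HE2, and fell by 3.27 ± 0.28 (adjusted p = 0.000309). Dppa5a, an RNA-binding protein gene of ES cells, read 14.18 and 13.99 in Flk1+ cells and 7.84 and 8.72 in progenitors and fell by 5.81 ± 0.26 (adjusted p = 2.48e-05). Both had reached their low level in HE1. On their brightest probes Sall4, Fgf4, Zfp42, Tdgf1, Lin28a and Esrrb fell by 1.18 (Esrrb) to 3.08 (Fgf4), and Lin28a read 12.83 and 12.63 in progenitors after 14.29 and 14.15 in Flk1+ cells. The brightest Tdgf1 probe differed by -1.795, but 2 others differed by -5.37 and -4.235 and averaged 6.11 and 5.865 in progenitors. Otx2 and Fgf5 fell too, Otx2 not without either progenitor array (-2.87), and the bound for Fgf5 was at least 2.65-fold with a call lost in 5 of 8 omissions. The differences for Lin28b, the paralog of Lin28a, and for the RNA-binding ubiquitin ligase gene Trim71 were 0.22 and -0.65. For the de novo DNA methyltransferase gene Dnmt3b the net difference was 0.07, with a fall of 1.71 into HE1 and a rise of 1.61 into HE2 (adjusted p = 0.00116 and 0.00934). The brightest probes of Nanog (0.69) and Dppa4 (0.98) did not pass, nor did those of Sox2, Klf4, Utf1, Dnmt3l, Dppa3, Tcl1 and Nr0b1, which lay between -0.73 (Dnmt3l) and 0.20 (Tcl1).

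Transcription factors of blood rose for the most part, although 4 of the list were called lower in HE1 than in Flk1+ cells. Of 30 tested, 17 rose and 1 fell (4.26% of all genes rose), with a median of 1.52. Runx1, on which the exit of blood cells from endothelium depends, read 10.70 and 11.28 in Flk1+ cells, 10.03 and 9.08 in HE1, 12.96 and 12.54 in HE2, with progenitors at 13.16 and 13.41. It was lower in HE1 than in Flk1+ cells by 1.44 (adjusted p = 0.0203), higher in HE2 than in HE1 by 3.20 (adjusted p = 0.00637), and higher by 2.30 ± 0.34 over the whole course (adjusted p = 0.00316). Ikzf1, the lymphoid and myeloid regulator Ikaros, had the same order, with 7.51 and 8.24 in Flk1+ cells, 6.94 and 6.33 in HE1, 9.83 and 9.51 in HE2, with progenitors at 10.50 and 10.70 and a net rise of 2.73 ± 0.29 (adjusted p = 0.000741). A lower mean in HE1 than in Flk1+ cells was also seen for Gata1, Gfi1b, Myb and Nfe2, without a call at that step.

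Factors of red cells and megakaryocytes stood high in progenitors. Nfe2, a leucine zipper factor of both lineages, read 9.86 and 10.96 in Flk1+ cells, 11 and 9.04 in HE1, 14.21 and 13.59 in HE2, with progenitors at 15.05 and 15.17 and rose by 4.70 ± 0.64 (adjusted p = 0.00218), most of it between HE1 and HE2 (3.88, adjusted p = 0.0168). Gfi1b, whose promoter is printed above, read 9.30 and 10.33 in Flk1+ cells, 9.74 and 9.10 in HE1, 12.91 and 12.82 in HE2, with progenitors at 13.49 and 13.88 and rose by 3.87 ± 0.35 (adjusted p = 0.000404). The groups did not overlap for either gene. Klf1, the activator of the adult beta-globin gene, read 7.10 and 7.79 in Flk1+ cells, 8.34 and 6.48 in HE1, 9.12 and 7.98 in HE2, with progenitors at 11.05 and 12.46. Its net rise of 4.31 ± 0.73 was called (adjusted p = 0.00587), although no single step was, and the largest difference, 3.21, was that from HE2 to progenitor. Gata1, the master factor of both lineages, read 10.24 and 11.19 in Flk1+ cells, 9.57 and 6.89 in HE1, 11.29 and 11.17 in HE2, with progenitors at 13.83 and 14.66 and rose by 3.53 ± 0.80 (adjusted p = 0.0205), a call that was lost without Flk1+ replicate 1 or without either progenitor array (3.06 to 3.95). Gata1 was lowest in HE1, and its HE1 replicates lay far apart.

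Gata2, the GATA factor of stem and progenitor cells, was the only member of the list to fall. It read 13.10 and 13.30 in Flk1+ cells, 12.21 and 12.46 in HE1, 11.85 and 11.85 in HE2, with progenitors at 11.18 and 11.07, lower in each population than in the one before and by 2.08 ± 0.12 over the course (adjusted p = 6.18e-05), with no single step called. Genes of factors that work with it in hemogenic cells did not pass, with a net difference of 0.71 for Tal1 (adjusted p = 0.0624), -0.05 for Lmo2 (adjusted p = 0.945) and 0.94 for Fli1 (adjusted p = 0.0607). Lyl1, a bHLH factor close to TAL1, rose by 3.13 from 11.68 and 12.88 to 15.56 and 15.26, and Erg, an ETS factor of stem cells and endothelium, rose by 2.24 from 7.16 and 7.45 to 9.90 and 9.19. Both of these were called at the first step. Meis1, a HOX cofactor, rose at the first and second steps to a net 4.34 ± 0.17 (adjusted p = 1.58e-05).

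Factors of the myeloid lineage appeared late. Spi1 (PU.1) read 6.34 and 5.99 in Flk1+ cells, 6.17 and 6.02 in HE1, 8.09 and 7.65 in HE2, with progenitors at 9.14 and 9.07, called at the last 2 steps and over the course (2.94 ± 0.18, adjusted p = 7.18e-05). Cebpa and Cebpe, C/EBP factors of granulocytes, were called only from HE2 to progenitor. Cebpe read 6.79 and 6.72 in Flk1+ cells, 6.46 and 6.19 in HE1, 6.91 and 6.50 in HE2, with progenitors at 8.51 and 8.61 and rose by 1.81 ± 0.16 (adjusted p = 0.000331), and Cebpa rose by 1.09 (0.99 and no call without Flk1+ replicate 1). Cebpb rose by 3.12, with a call at HE1 to HE2, and Irf8, a factor of monocytes, rose by 2.56 from 7.23 and 7.07 to 9.23 and 10.19. Myb, needed for definitive blood cells, rose by 3.14, but not without Flk1+ replicate 1 or progenitor replicate 1 (2.62 to 3.02). Cbfa2t3 and Etv6 rose by 1.96 and 1.23. The members that did not pass were Runx3 (-0.27), Gfi1 (0.91), Cbfb (0.09), Zfpm1 (0.80), Hhex (0.33), Mecom (-0.03), Ldb1 (-0.04), Bcl11a (-0.18), Mycn (0.14), Tal1, Lmo2 and Fli1. Of these Lmo2 and Bcl11a were called lower at the first step.

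Globin genes included the largest rise of the array, and their replicates lay far apart. Of 11 tested, 10 rose (4.26% of all genes), and the median change was 4.76. Hba-x, the embryonic zeta-globin gene, read 6.14 and 6.16 in Flk1+ cells, 13.49 and 7.55 in HE1, 14.06 and 11.08 in HE2, with progenitors at 14.58 and 16.83, at least 752-fold higher in progenitors (adjusted p = 0.0117). Hbb-bh1, an embryonic beta-like gene, read 10.37 and 11.78 in Flk1+ cells, 15.62 and 11.22 in HE1, 16.59 and 15.47 in HE2, with progenitors at 17.75 and 18.70 and rose by 7.15 ± 1.31 (adjusted p = 0.00830). Hbb-y, the other embryonic beta-like gene, rose by 7.32 ± 1.31 from 7.36 and 7.98 to 14.03 and 15.95 (adjusted p = 0.00741). All progenitor arrays were above all Flk1+ arrays for each of the 11, against 26.6% of all genes. Among adult genes Hba-a2 read 8.61 and 8.90 in Flk1+ cells, 14.58 and 8.82 in HE1, 15.27 and 12.47 in HE2, with progenitors at 16.49 and 18.23, with a net change of 8.61 ± 1.80 (adjusted p = 0.0143). Hba-a1 rose by 7.95, Hbb-b2 rose by 4.76 and Hbb-bt rose by 3.63, and these adult genes have near-identical copies whose signals the probes may share. Hbb-bs was higher by at least 9.85-fold and Hbq1a by at least 2.75-fold. The one member that did not pass was Hbb-bh2 (0.33).

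The replicates of these genes differed in a fixed direction within each population. Replicate 2 of the progenitors was above replicate 1 for all 11 globin genes, whereas replicate 1 was the higher in 10 of 11 in HE2 and 9 of 11 in HE1, and in Flk1+ cells in 1 of 11. Over all genes replicate 1 was the higher for 17703 of 37006 in progenitors, 18785 of 36999 in HE2, 18514 of 37005 in HE1 and 19235 of 37006 in Flk1+ cells. For Hba-x the HE1 pair differed by almost 6 on the log2 scale and the progenitor pair by more than 2. None of the 11 was called at any single step. The calls for Hba-x, Hba-a1, Hba-a2 and Hbq1a were lost without either Flk1+ array or without progenitor replicate 2, with differences for Hba-x of 8.43 to 9.57 in those fits, and those for Hbb-bh1, Hbb-y, Hbb-bs and Hbq1b in 1 or 2 such fits. Of the 10 calls, 3 remained without Flk1+ replicate 1, 5 without Flk1+ replicate 2 and 4 without progenitor replicate 2.

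**Figure D4:**
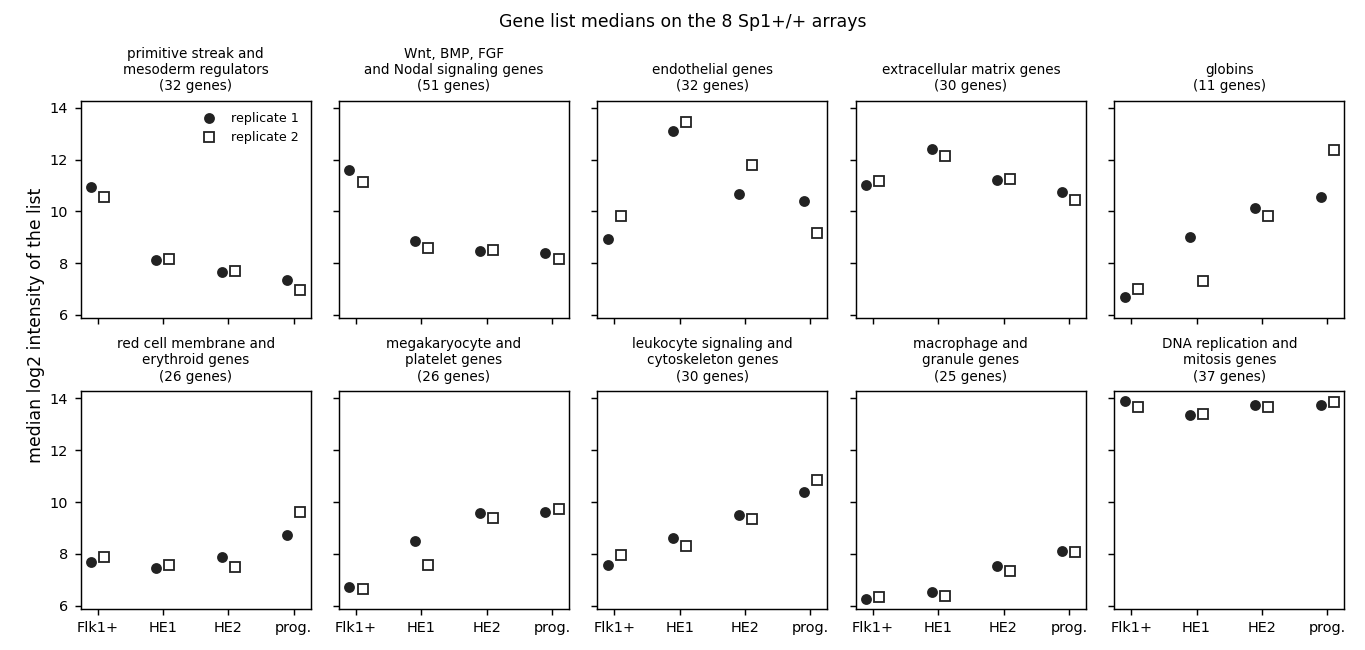
Median log2 intensity over the members of 10 gene lists on each of the 8 arrays, by population. Replicate 1 is a filled circle and replicate 2 an open square. The globin and endothelial panels show the replicates of a population farthest apart, while the DNA replication panel stays between 13.37 and 13.89.

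The rest of the red cell program rose in part. Of 26 membrane and erythroid genes tested, 12 rose (4.26% of all genes) and none fell, with a median of 0.98. Gypc (glycophorin C) rose by 3.10 ± 0.27 from 11.16 and 11.99 to 14.46 and 14.89 (adjusted p = 0.000328), with a call at HE1 to HE2. Kel, which encodes the Kell antigen, read 6.61 and 6.72 in Flk1+ cells, 6.89 and 6.19 in HE1, 7.23 and 6.50 in HE2, with progenitors at 8.77 and 10.25, and Tmod1, which caps actin filaments of the red cell skeleton, read 6.89 and 6.51 in Flk1+ cells, 7.19 and 6.50 in HE1, 7.14 and 6.48 in HE2, with progenitors at 8.82 and 10.02. Kel rose by 2.85 (adjusted p = 0.00637) and Tmod1 rose by 2.72 (adjusted p = 0.00451), both with no call up to HE2. Trim10, Epb42, Epb41, Xk and Add2 also rose, by 1.85 (Xk) to 2.37 (Trim10), and Sptb by 1.02. The calls for Add2 and Sptb were lost without Flk1+ replicate 1, and that for Sptb also without progenitor replicate 2. Epor, the erythropoietin receptor, read 11.87 and 11.88 in Flk1+ cells, 11.51 and 10.79 in HE1, 11.75 and 11.57 in HE2, with progenitors at 12.96 and 13.84, a net rise of 1.53 ± 0.32 (adjusted p = 0.0147) that was lost without either Flk1+ array or progenitor replicate 2 (1.09 to 1.53). In progenitors replicate 1 was above replicate 2 for 2 of the 26 genes, against 17703 of 37006 genes in all.

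Several red cell genes were already high in mesoderm or did not pass. Hemgn, a nuclear protein of blood cells, read 14.16 and 13.97 in Flk1+ cells and 14.53 and 14.41 in progenitors, and Car2, a carbonic anhydrase, read 14.23 and 13.77 in Flk1+ cells and 14.41 and 14.82 in progenitors. Tfrc, the transferrin receptor, fell into HE1 by 2.14 (adjusted p = 0.00102) and had a net difference of -0.42 (adjusted p = 0.319). The anion exchanger gene Slc4a1 had a difference of 1.31 (adjusted p = 0.0761), and Rhag and Rhd, Rh-complex genes, of 0.96 and -0.86, just under 2-fold in opposite directions. Ank1, Car1, Icam4, Slc25a37, Slc11a2, Steap3, Tspo2 and Ermap lay between -0.42 (Tspo2) and 0.85 (Car1). For Ermap the brightest probe gave -0.15 but 2 others 1.20 and 1.63. Of 9 heme synthesis enzymes 3 rose, among them Fech, which inserts the iron (2.05, adjusted p = 0.000502), and Uros (1.36). The call for Uros was lost without progenitor replicate 2. Alas2, the erythroid form of the first enzyme, read 8.53 and 9.64 in Flk1+ cells, 9.27 and 7.68 in HE1, 9.91 and 9.20 in HE2, with progenitors at 10.65 and 12.23, with a difference of 2.36 ± 0.71 that missed the threshold (adjusted p = 0.0581), and Alas1, Alad, Urod, Cpox and Ppox differed by 0.27 (Cpox) to 0.69 (Alad). The GATA match was present in 4 of 9 globin promoters (44.4%) and in 7 of 17 promoters of the red cell list (41.2%), against 5.82% of all promoters. The 4 globin promoters were those of Hba-a1, Hba-a2, Hbb-bs and Hbb-bt, which belong to near-identical gene copies and are not independent. The TCF/LEF match was present in 3 of 9 globin promoters (33.3%, against 13% of all).

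Most genes of megakaryocytes and platelets rose. Of 26 tested, 21 rose (4.26% of all genes) and none fell, with a median change of 2.17. Both progenitor arrays were above both Flk1+ arrays in all 26, against 26.6% of all genes. Plek, the platelet kinase substrate pleckstrin, read 6.39 and 6.40 in Flk1+ cells, 9.65 and 8.41 in HE1, 13.71 and 13.42 in HE2, with progenitors at 14.53 and 14.71 and rose by 8.23 ± 0.36 (adjusted p = 2.36e-05). Itgb3, the beta chain that pairs with CD41 in the platelet fibrinogen receptor, read 7.58 and 8.34 in Flk1+ cells, 10.92 and 9.97 in HE1, 14.71 and 14.56 in HE2, with progenitors at 14.71 and 15.11 and rose by 6.95 ± 0.36 (adjusted p = 4.31e-05). Both genes rose at the first and second steps, and neither was called from HE2 to progenitor. Rab27b, a GTPase of granule release, read 6.90 and 7.37 in Flk1+ cells, 11.49 and 11.19 in HE1, 13.75 and 13.47 in HE2, with progenitors at 13.58 and 13.74, with the same steps. P2rx1, an ATP receptor of platelets, rose by 5.13, and its call lay at HE1 to HE2.

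Parts of the von Willebrand factor receptor rose at different steps. Gp1ba rose by 2.51 over the course and was called at HE1 to HE2 (1.63), and Gp9, higher by at least 11.2-fold, was called at the last 2 steps. Gp1bb and Gp5 rose by 1.36 and 2.14 over the course and were called at HE2 to progenitor (1.10 and 1.35). The call for Gp1bb was lost with the mean over its probes (0.53), the other 2 of which differed by 0.10 and 0.14. Tubb1, the beta-tubulin of platelets, was likewise called only at the last step (6.65 and 6.46 in Flk1+ cells, 6.65 and 6.74 in HE1, 6.98 and 7.06 in HE2, with progenitors at 8.14 and 8.93). Pf4, a platelet chemokine, read 6.23 and 6.10 in Flk1+ cells, 8.57 and 7.33 in HE1, 10.86 and 10.62 in HE2, with progenitors at 10.40 and 10.85, and Clec1b, the podoplanin receptor, was at least 30-fold higher with most of its rise into HE1 (adjusted p = 0.000217). Thbs1 (thrombospondin) rose by 5.88, 5 of it at the first step. F2rl3, F2rl2 and Pear1 were also called at the first step alone and rose by 1.37 (F2rl2) to 2.36 (F2rl3). Vwf, a gene of megakaryocytes and endothelium, read 7.71 and 8.51 in Flk1+ cells, 10.82 and 10.75 in HE1, 10.15 and 10.42 in HE2, with progenitors at 9.20 and 9.79, highest in HE1, and its net rise was lost without Flk1+ replicate 1 or progenitor replicate 2 (0.99 to 1.09). Treml1 rose by 3.17, Selp rose by 1.63, Mmrn1 was at least 4.39-fold and Tbxas1 at least 4.55-fold higher. F2r (0.72), Alox12 (0.98), P2ry12 (0.57), Ppbp (0.42) and Gp6 (0.39) did not pass. The ETS match was present in 11 of 21 promoters of the list (52.4%, against 28.2% of all).

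Receptors for blood cytokines were mixed. Of 21 tested, 10 rose and 1 fell (4.26% and 4.24% of all genes), with a median of 0.80. Csf2rb, the shared beta chain for IL-3, IL-5 and GM-CSF, read 6.86 and 6.72 in Flk1+ cells, 10.48 and 9.20 in HE1, 12.41 and 12.46 in HE2, with progenitors at 14.02 and 14.74 and rose by 7.59 ± 0.41 (adjusted p = 4.98e-05). Csf2rb2, the second mouse copy, which serves IL-3 alone, was at least 128-fold higher (adjusted p = 4.64e-05), and the copies are alike enough for their probes to share signal. The alpha chains Csf2ra (0.80) and Il3ra (0.24) did not pass. Il6ra, the IL-6 receptor, rose by 4.03 ± 0.23 from 7.49 and 7.40 to 11.28 and 11.66 (adjusted p = 6.61e-05), while its signaling partner Il6st differed by -0.82. Il2rg, the common gamma chain, rose by 3.55, and Ifngr1 and Il4ra rose by 1.50 and 1.07, with calls at the first step alone. Il1rl1, the IL-33 receptor of mast cells, read 7.79 and 7.37 in Flk1+ cells, 6.29 and 6.19 in HE1, 7.92 and 7.44 in HE2, with progenitors at 9.02 and 9.10, with a fall into HE1 and called rises at both later steps. Ccr2, a chemokine receptor of monocytes, was at least 6.39-fold higher, with a call at the last step alone. Cxcr4, which guides mesoderm and later blood cells to the chemokine CXCL12, was the one to fall, with 11.24 and 10.52 in Flk1+ cells, 6.34 and 6.35 in HE1, 5.94 and 6.17 in HE2, with progenitors at 6.07 and 6.09 and at least 27.9-fold lower in progenitors (adjusted p = 2.74e-05). Csf1r (0.35), Csf3r (-0.44), Flt3 (0.30), Il7r (0.45), Il1r1 (0.52), Tnfrsf1b (0.72) and Ccr1 (0.27) did not pass, although another Csf1r probe differed by 1.15.

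Signaling and cytoskeleton genes shared by leukocytes rose over all 3 steps. Of 30 tested, 24 rose and none fell, the median change was 3.27, and 11, 12 and 14 were called higher at the successive steps (4.62%, 0.997% and 0.619% of all genes). Arhgdib, an inhibitor of small GTPases in blood cells, read 8.66 and 9.08 in Flk1+ cells, 14.17 and 14.30 in HE1, 14.79 and 14.79 in HE2, with progenitors at 15.27 and 15.27 and rose by 6.40 ± 0.14 (adjusted p = 3.84e-06), mostly at the first step. A second Arhgdib probe rose by 1.895 only, from a mean of 10.96 to 12.85, so the size of the rise depends on the probe. Hcls1, which links receptors to actin, rose by 5.68 ± 0.19 (adjusted p = 1.10e-05). Vav1, the guanine nucleotide exchange factor whose promoter is printed above, read 6.99 and 7.42 in Flk1+ cells, 9 and 8.92 in HE1, 11.56 and 11.37 in HE2, with progenitors at 12.74 and 12.84 and was called higher at each of the 3 steps (5.59 ± 0.15 in all, adjusted p = 7.74e-06). Only 5 of the genes higher over the course were called higher at all 3 steps, among them Vav1 and Ccl6. The kinase genes Syk and Btk rose by 4.17 and 4.01, and the phosphatase genes Inpp5d and Ptpn6 rose by 4.80 and 3.05.

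Some genes of this list rose late, among them some surface proteins of white cells. Ptprc, the pan-leukocyte antigen CD45, read 6.56 and 6.72 in Flk1+ cells, 6.58 and 6.77 in HE1, 6.81 and 7.15 in HE2, with progenitors at 8.31 and 9.02 and rose by 2.03 ± 0.24, called only at the last step (adjusted p = 0.0292). Cd52 rose by 5.40, Itga4, an integrin of cell homing, rose by 3.98, Coro1a rose by 4.03 and Rac2 rose by 3.48. Cd53 was at least 4.66-fold, Fyb at least 3.46-fold, Lcp2 at least 3.33-fold and Evi2a at least 26.3-fold higher. Spn (CD43), an early marker of blood commitment, read 8.83 and 8.77 in Flk1+ cells, 7.49 and 7.17 in HE1, 8.27 and 8.01 in HE2, with progenitors at 10.24 and 10.77, lower in HE1 than in Flk1+ cells (adjusted p = 0.00207) and higher in progenitors than in HE2 (adjusted p = 0.00596). Laptm5, Was, Plcg2, Lcp1, Nckap1l, Cd44 and Itgb2 rose by 1.81 (Itgb2) to 4.88 (Laptm5). Dock2 (0.75), Lat (0.88), Selplg (0.74), Cd37 (0.33), Cd48 (0.26) and Cd84 (-0.45) did not pass, although a second Selplg probe differed by 2.23 (adjusted p over probes = 0.000345). Of 24 promoters of the list 13 held the ETS match (54.2%, against 28.2% of all).

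Genes of granules and macrophages rose in HE2 and in progenitors. Of 25 tested, 13 rose (4.26% of all genes) and none fell, with a median of 1.22. At the successive steps 1, 8 and 7 were called higher (4.62%, 0.997% and 0.619% of all genes). Tyrobp (DAP12), an adaptor of myeloid receptors, read 6.22 and 6.15 in Flk1+ cells, 7.88 and 6.37 in HE1, 10.55 and 10.01 in HE2, with progenitors at 13.04 and 13.51, at least 136-fold higher (adjusted p = 0.000100). Mpo, the myeloperoxidase of granules, read 8.27 and 9.42 in Flk1+ cells, 10.44 and 9.01 in HE1, 14.14 and 12.70 in HE2, with progenitors at 15.13 and 14.67 and rose by 6.06 ± 0.65 (adjusted p = 0.000787). Fcer1g, the common gamma chain of Fc receptors, rose by 4.35 ± 0.28 (adjusted p = 0.000104), and Ncf1, a subunit of the phagocyte oxidase, rose by 3.86 from 6.30 and 6.33 to 9.90 and 10.45. The lysozyme genes Lyz1 and Lyz2 were higher by at least 19.6-fold and 7.24-fold, with a rise at HE1 to HE2. Cd14, Prtn3 and Ms4a3 were called only at the last step, where they differed by 2.80, 1.19 and 1.88, and over the course Cd14 rose by 3.56, Prtn3 rose by 1.52 and Ms4a3 was higher by at least 7.31-fold. Fcgr3, Cpa3 and Cd33 rose too, the last without its call when progenitor replicate 2 was left out.

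Several markers of mature macrophages and neutrophils were not called. Adgre1, the macrophage surface antigen, read 7.47 and 7.85 there, Cybb 6.31 and 6.44, S100a8 6.28 and 6.39, S100a9 6.54 and 6.18, Fcgr1 6.48 and 6.45 and Timd4 6 and 5.98, against 7.41 and 7.05, 6.09 and 6.15, 5.98 and 5.83, 6.06 and 6.08, 5.93 and 5.98 and 5.82 and 6.31 in Flk1+ cells. None of these brightest probes passed, but a second Adgre1 probe differed by 1.81 (adjusted p over probes = 0.000545). Timd4 was well above background on 0 progenitor arrays, and S100a8 and S100a9 on 1 each. Mrc1, the mannose receptor, read 6.82 and 6.65 in Flk1+ cells, 11.26 and 10.28 in HE1, 8.56 and 9.08 in HE2, with progenitors at 8.12 and 6.17 and was called higher only in HE1, where embryonic endothelium also expresses it. Elane, Ctsg, Itgam, Mcpt8 and Prg2 did not pass. The brightest Itgam probe was lower in progenitors by less than 2-fold (-0.76, adjusted p = 0.00344), while a second one differed by 0.95. The ETS match was present in 14 of 20 promoters of the list (70%, against 28.2% of all). High ETS shares were not particular to lists that rose. The endothelial list, with a median of -0.06, held the match in 9 of 18 promoters (50%) and the integrin list in 8 of 17 (47.1%). Among lists that rose, it was in 0 of 9 globin promoters and 5 of 25 promoters of blood transcription factors (20%).

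Endothelial genes rose into HE1 and had returned close to their mesodermal level in progenitors. Of 32 tested, 26 were called higher at the first step (4.62% of all genes). Over the whole course only 6 were higher and 4 lower (4.26% and 4.24% of all genes), with a median of -0.06. On the Flk1+ arrays the list median was 8.93 and 9.82, on the HE1 arrays 13.11 and 13.44, on the HE2 arrays 10.66 and 11.81, and on the progenitor arrays 10.40 and 9.15. Cdh5 (VE-cadherin), the adhesion protein of endothelial junctions, read 9.04 and 10.23 in Flk1+ cells, 15.16 and 14.93 in HE1, 13.27 and 14.26 in HE2, with progenitors at 12.29 and 11.23. It rose by 5.41 into HE1 (adjusted p = 0.000565), and its net difference of 2.13 ± 0.52 was called (adjusted p = 0.0264) but not without Flk1+ replicate 1 or progenitor replicate 1 (1.53 to 1.60). Ramp2, the co-receptor for adrenomedullin, read 13.51 and 14.57 in Flk1+ cells, 17.55 and 17.49 in HE1, 14.53 and 16.11 in HE2, with progenitors at 14.13 and 10.86, a net difference of -1.55 ± 1.02 (adjusted p = 0.396). Icam2, Robo4, Mmrn2, Esam, Eng and Sox18 followed the same course, with rises of 4.11, 3.74 and 5.31 for Eng, Esam and Icam2 at the first step and net differences between 0.34 (Mmrn2) and 0.89 (Eng), none called. Nos3 (endothelial nitric oxide synthase) read 10.12 and 10.95 in Flk1+ cells, 14.26 and 14.07 in HE1, 9.72 and 11.70 in HE2, with progenitors at 10.50 and 7.88.

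The few that stayed higher in progenitors include genes shared with blood cells. Cd34, a sialomucin of stem cells and endothelium, read 7.53 and 8.26 in Flk1+ cells, 14.99 and 16.01 in HE1, 16.04 and 16.68 in HE2, with progenitors at 15.96 and 15.74 and rose by 7.96 ± 0.39 (adjusted p = 3.73e-05), and was called at no later step. Tie1 rose by 3.51 ± 0.50, Pecam1 rose by 1.77, Plvap rose by 1.99 and Lyve1 rose by 2.16. Lyve1, the hyaluronan receptor of lymphatic vessels, rose at the first 2 steps and fell at the last by 2.46 (adjusted p = 0.00412). The call for Plvap was lost without Flk1+ replicate 1 or progenitor replicate 1. Those that fell were Efnb2, the arterial ephrin (-3.61 ± 0.39, adjusted p = 0.000877), the Notch targets Hey1 (-1.78) and Hey2 (-2.35), and Sox7 (-3.53). Efnb2 read 12.59 and 12.93 in Flk1+ cells, 12.44 and 12.23 in HE1, 9.57 and 10.82 in HE2, with progenitors at 9.44 and 8.86, so that it differed from most of the list in being high in Flk1+ cells and not called into HE1. A second Efnb2 probe differed by -0.745 (limma adjusted p over probes = 0.0891). The calls for Hey2 and Sox7 were lost without progenitor replicate 2, and that for Sox7 in 5 of 8 omissions and in the fit of the 4 arrays alone.

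The progenitor replicates lay apart in 1 direction in these genes. Replicate 1 was above replicate 2 for 31 of the 32 endothelial genes, against 17703 of 37006 genes in all, and for 2 of 32 in HE2, 15 of 32 in HE1 and 6 of 32 in Flk1+ cells. For some genes without a call the sign turned with 1 array left out, since the difference for Ramp2 was 0.09 without progenitor replicate 2 and those for Icam2 and Robo4 were -0.41 and -0.38 without progenitor replicate 1. Progenitor replicate 1 had higher endothelial and lower globin values than replicate 2, and HE2 replicate 2 higher endothelial and lower globin values than HE2 replicate 1. The part of this difference in the results above was not tested beyond the omissions given. Without progenitor replicate 1, 6 endothelial genes were lower over the course, and without replicate 2, 2 were. Among the 32, 22 did not pass, and Notch1, Stab2, Dll4 and Clec14a differed by -0.42 (Notch1) to 0.06 (Clec14a).

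**Figure D5:**
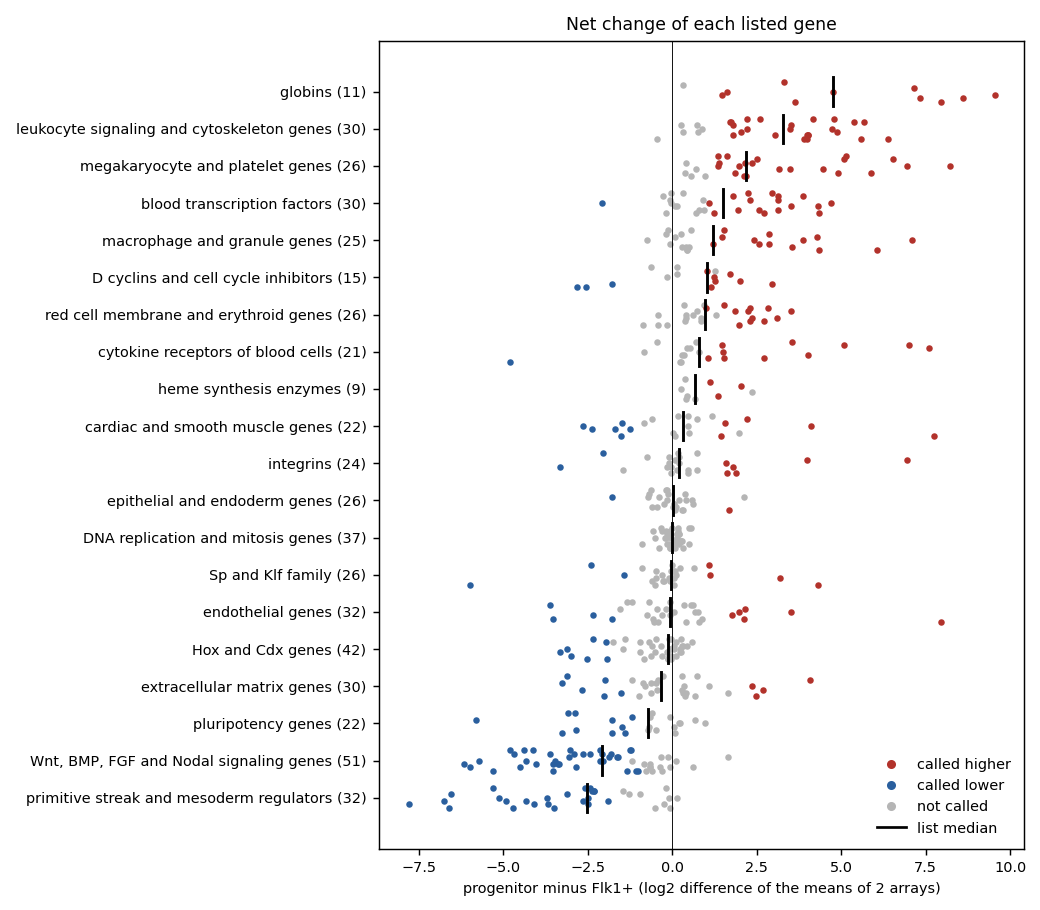
Net log2 difference (progenitor minus Flk1+) of every tested member of each gene list, 1 point per gene. Called genes are in color, and a bar marks the list median. The mesoderm and signaling lists lie almost wholly below 0, the megakaryocyte, globin and leukocyte lists above it, and the DNA replication list within -0.90 to 0.56.

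Some genes of smooth muscle rose, while most genes of early heart muscle fell or did not pass. Of 22 tested, 5 rose and 6 fell (4.26% and 4.24% of all genes). Acta2, the smooth muscle actin, read 8.47 and 9.07 in Flk1+ cells, 17.60 and 16.79 in HE1, 16.57 and 15.09 in HE2, with progenitors at 16.81 and 16.24 and rose by 7.76 ± 0.51 (adjusted p = 0.000111), with a call at the first step alone. Tagln (SM22), an actin-binding protein of smooth muscle, read 11.55 and 11.81 in Flk1+ cells and 15.94 and 15.65 in progenitors and rose by 4.12 ± 0.31 (adjusted p = 0.000182). Myl9 rose by 1.56, and the heart genes Nppb and Mef2c rose by 1.46 and 2.23, also called at the first step alone. The contractile genes Cnn1 (0.47) and Myh11 (0.48, with 6.66 and 6.73 in progenitors) did not pass. Of early heart genes, Myl7, Myh6 and Smarcd3 fell by 1.53 to 2.65 (a second Myh6 probe differed by 0.02), Tbx5 and Actn2 by at least 2.82-fold and 3.26-fold, and Myl4 by 1.25, a call lost without any 1 of the Flk1+ or progenitor arrays. Tnnt2 (1.18), Actc1 (1.99), Tnnc1, Myh7, Myocd, Des, Ttn, Nppa and Pln did not pass.

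Genes of the extracellular matrix behaved like the endothelial list at the first step. Of 30 tested, 15 were called higher into HE1 and 8 lower from HE1 to HE2 (4.62% and 1.74% of all genes). Over the whole course 4 rose and 6 fell (4.26% and 4.24% of all genes), with a median of -0.34. Fn1 (fibronectin) read 16.93 and 16.86 in Flk1+ cells, 16.99 and 17.04 in HE1, 16.13 and 16.73 in HE2, with progenitors at 15.22 and 14.52, a net change of -2.03 ± 0.26 (adjusted p = 0.00180). Fbln1, Fbn2, Has2, Lama4 and Vcan fell by 1.50 (Vcan) to 3.27 (Fbln1), and Has2, which makes hyaluronan, was called only at the last step, from 12.06 and 12.61 in HE2 to 10.67 and 9.82. The call for Lama4 was lost without Flk1+ replicate 2 or progenitor replicate 2. Col18a1 rose by 2.47 ± 0.31 (adjusted p = 0.00150). Col1a2 and Col3a1, fibrillar collagens, rose by 2.69 and 2.37, and Postn (periostin) was at least 16.4-fold higher, with 6.04 and 5.92 in Flk1+ cells, 10.86 and 8.58 in HE1, 10.06 and 8.09 in HE2, with progenitors at 10.66 and 9.45, but all 3 calls were lost without progenitor replicate 1 or without Flk1+ replicate 1, and those for Col3a1 and Postn also without Flk1+ replicate 2. The basement membrane genes Col4a1 and Col4a2 peaked in HE1 and had net differences of -0.63 and -0.42. The 20 members that did not pass include these and Nid1 (1.08), Hspg2 (-0.79), Lamb1 (-0.98), Sparc (0.30), Fbn1 (-1.19) and Hapln1 (1.66). In progenitors replicate 1 was above replicate 2 for 27 of the 30, against 17703 of 37006 genes in all.

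Of 26 epithelial and endodermal genes tested, 1 rose and 1 fell, a share close to the 8.50% of all genes called. Epcam fell by 1.77 from 8.46 and 8.04 to 6.45 and 6.51 (adjusted p = 0.000228), and Afp, a fetal liver and yolk sac gene, was at least 3.22-fold higher (adjusted p = 0.00433). The simple keratin genes Krt8 and Krt18 read 13.56 and 13.30 in Flk1+ cells and 13.02 and 12.59 in progenitors and 15.34 and 15.24 in Flk1+ cells and 15.67 and 15.34 in progenitors, respectively, with no call. Foxa1, Foxa2, Hnf4a, Ttr, Apoa1, Apob and Amn read 7.71 or less on average in HE2 and progenitors. At the first step Foxa2, Apoe, Cubn, Dab2 and Nes were called higher and Epcam lower.

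Integrin genes were mixed. Of 24 tested, 6 rose and 2 fell, against 4.26% and 4.24% of all genes (median 0.19). Besides Itgb3, Itga4 and Itgb2, given above, Itgax, a chain of dendritic and myeloid cells, rose by 1.89 from 6.44 and 6.08 to 7.61 and 8.69, and Itga3 and Itga7, laminin receptors, rose by 1.59 and 1.63 after a peak in HE1. Itga9 fell by 3.31 ± 0.33 (adjusted p = 0.000620) and Itgb5 fell by 2.05, the latter not without Flk1+ replicate 1 or progenitor replicate 2. The chains of the main fibronectin receptor did not pass, with differences of -0.08 for Itga5 and 0.14 for Itgb1, nor did the laminin receptor chain Itga6 (0.73). Itga2b was counted with the sort markers, and Itga10 and Itgae were not tested, as were not Hbb-b1, Ahsp and Cd68 of the lists above. Itga1, Itga2, Itga8, Itga11, Itgad, Itgal, Itgav, Itgb2l, Itgb4, Itgb6, Itgb7 and Itgb8 did not pass, with differences of -1.45 (Itga8) to 0.74 (Itgb7).

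Homeobox genes of the Hox clusters and Cdx genes, which set position along the body axis, fell or showed no call. Of 42 tested, none rose and 7 fell (4.24% of all genes), with a median of -0.14. Many were dim, since 9 were well above background on no Flk1+ array, 13 on no progenitor array and 8 on neither. A missing call in such genes says little. Cdx2 fell by 3 ± 0.44 from 9.80 and 11.19 to 7.43 and 7.57 (adjusted p = 0.00332) and Cdx1 fell by 1.93. Hoxb2 and Hoxb3 fell by 3.31 and 3.12, and Hoxb1 was lower by at least 5.50-fold. The falls of Hoxd1 and Hoxb6 were lost in 3 and 7 of the 8 omissions. Hoxb4, a gene linked to stem cell growth, read 9.14 and 10.91 in Flk1+ cells, 12.63 and 12.25 in HE1, 10.78 and 11.48 in HE2, with progenitors at 9.90 and 8.94, called higher in HE1 and with a net difference of -0.61 (adjusted p = 0.593). Hoxa9 read 6.70 and 7.76 in Flk1+ cells and 7.55 and 7.45 in progenitors, and Hoxb7, Hoxb8, Hoxb9, Hoxd8 and Hoxd10 were called higher in HE1 but not over the course. The other members did not pass either, and all 35 such members lay between -1.76 (Hoxb5) and 0.59 (Hoxd8). A second Hoxa13 probe differed by -1.05 (limma adjusted p over probes = 0.00113), against -0.02 for the brightest.

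No gene of DNA replication or mitosis was called over the course, whereas genes of cell cycle inhibitors were. Of 37 DNA replication and mitosis genes none was called over the course, the differences ran from -0.90 (Ccne1) to 0.56 (Mki67), and their median was 0.00. At an unadjusted p under 0.05 with a 2-fold change none passed in limma either, since no difference reached 2-fold. At the steps, 2 were called lower into HE1, Ccne1 (-1.81) and Mcm10 (-1.24), where the list median was -0.43, followed by 0.34 from HE1 to HE2. Without progenitor replicate 2, Ccne1 alone was called lower, at -1.13. Of 15 D cyclins and inhibitors 7 rose and 3 fell (4.26% and 4.24% of all genes). The D cyclins parted ways. Ccnd1 read 13.86 and 14.02 in Flk1+ cells, 13.46 and 14.85 in HE1, 11.43 and 13.47 in HE2, with progenitors at 11.16 and 11.10, a net change of -2.81 ± 0.67 (adjusted p = 0.0249) whose call was lost without any 1 of the Flk1+ or progenitor arrays (-2.89 to -2.73). Ccnd2 fell by 1.77 ± 0.22 (adjusted p = 0.00156), and Ccnd3, the D cyclin of blood cells, rose by 1.27 ± 0.11 (adjusted p = 0.000277). The INK4 inhibitor genes all rose, Cdkn2a by 2.96, Cdkn2b by 2, Cdkn2c by 1.23 and Cdkn2d by 1.70, the first from 8.63 and 8.54 to 11.44 and 11.64. The imprinted inhibitor gene Cdkn1c fell by 2.56, Rbl2 and Rb1 rose by 1.15 and 1.02, and the call for Rb1 was lost without Flk1+ replicate 1 or progenitor replicate 2. Cdkn1a (1.25), Cdkn1b (-0.62), Cdk4 (-0.16), Cdk6 (0.15) and Rbl1 (0.13) did not pass.

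Of the Sp and Klf zinc finger factors, which read GC boxes, 26 were tested, 4 rose and 3 fell (4.26% and 4.24% of all genes). Sp1 itself, the gene mutated in the other cell line of the series, read 12.53 and 12.56 in Flk1+ cells, 12.39 and 12.42 in HE1, 12.14 and 12.48 in HE2, with progenitors at 12.16 and 12.33, a net difference of -0.30 (95% interval -0.61 to 0.01, adjusted p = 0.171). Sp3, which shares its sites, differed by 0.22 (adjusted p = 0.526), and Sp2 and Sp4 by -0.02 and 0.00. Apart from Sp5 and Klf1, given above, Klf2, which shear stress induces in endothelium, read 7.98 and 8.22 in Flk1+ cells, 14.27 and 13.59 in HE1, 12.30 and 12.99 in HE2, with progenitors at 11.85 and 10.72 and rose by 3.19 ± 0.41 (adjusted p = 0.00185). Klf3, a repressor of erythroid genes, rose by 1.12, Klf6 rose by 1.09, but not without Flk1+ replicate 2 or progenitor replicate 1, Klf15 fell by 2.42 and Klf12 fell by 1.43. The other 15 members did not pass, with differences of -0.88 (Klf5) to 0.65 (Klf14), and for Sp8 the brightest probe (0.11) and another (-2.52) disagreed.

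Among the largest changes of the whole array were genes outside these groups. Adgrg1 (GPR56), an adhesion receptor of stem cells, read 7.42 and 8 in Flk1+ cells, 11.56 and 9.38 in HE1, 15.08 and 14.36 in HE2, with progenitors at 15.42 and 15.52 and rose by 7.76 ± 0.64 (adjusted p = 0.000277). Its neighbor in sequence family Adgrg3 rose by 7.24 ± 0.12 (adjusted p = 2.16e-06), and both rose at the first and second steps. The CC chemokine genes Ccl6, Ccl9 and Ccl3 had their highest values in progenitors. Ccl6, whose promoter is printed above, read 6.08 and 6.04 in Flk1+ cells, 9.12 and 7.29 in HE1, 10.54 and 10.35 in HE2, with progenitors at 13.68 and 14.26, at least 241-fold higher (adjusted p = 0.000112), and Ccl9 rose by 7.09, while Ccl3 was at least 69.8-fold higher. Anxa1, an annexin of myeloid cells and stroma, was at least 105-fold higher, with 6.10 and 6.13 in Flk1+ cells, 13.22 and 12.66 in HE1, 12.33 and 11.67 in HE2, with progenitors at 13.03 and 12.64, and Ankrd1, a target of the YAP pathway, read 6.42 and 6.24 in Flk1+ cells, 13.17 and 13.97 in HE1, 11.86 and 12.12 in HE2, with progenitors at 12.38 and 12.32. These last rose at the first step alone. Hp (haptoglobin) read 6.49 and 6.61 in Flk1+ cells, 8.24 and 6.67 in HE1, 9.42 and 8.49 in HE2, with progenitors at 12.91 and 12.92, and Pirb, an inhibitory receptor, was at least 32.8-fold higher, both called at the last step alone. Angpt1, the ligand of Tie2, rose by 4.21 over the course, with calls at the first and last steps (1.13 and 2.20), F13a1 (factor XIII) was at least 53.8-fold and the inhibitory receptor gene Lilrb4a at least 95-fold higher, Dhrs3, which limits retinoic acid, rose by 5.51, and Myo1g and Muc13 rose by 5.20 and 5.22. A second F13a1 probe differed by 0.805 only.

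Among the deepest falls outside the groups was Cfc1 (Cryptic), a co-receptor for Nodal, which read 13.49 and 13.21 in Flk1+ cells and 6.34 and 6.27 in progenitors and fell by 7.05 ± 0.13 (adjusted p = 2.22e-06). Phlda2, an imprinted growth regulator, read 13.84 and 13.08 in Flk1+ cells and 6.39 and 6.68 in progenitors and fell by 6.93 ± 0.26 (adjusted p = 1.58e-05). Vstm2b, Zcchc12, Vrtn, Vldlr, which encodes a lipoprotein receptor, and Amhr2, which encodes the receptor for anti-Müllerian hormone, fell by 5.37 (Amhr2) to 5.74 (Vstm2b). Most of these falls lay at the first step, while Vldlr and Six2, a homeobox gene (-5.25), fell at the first and second. Second probes of Vldlr and Six2 differed by less, -1.485 and -2.905. Trh, the precursor of thyrotropin-releasing hormone, read 11.44 and 11.66 in Flk1+ cells, 8.12 and 8.08 in HE1, 7.97 and 8.17 in HE2, with progenitors at 7.07 and 6.63, with called falls at the first and last steps, a pattern it shared with Etv2 alone among the 1569 genes that fell. Sema3f, a guidance cue, fell by 3.77, with 1 step called, that from HE1 to HE2 (-1.88).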

How the data were processed

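RNA of 4 wild-type (Sp1 +/+) populations, 2 samples each, was hybridized to one-color (Cy3) Agilent arrays. The authors extracted spot intensity with Agilent Feature Extraction (version 10.7.1.1 in the submitters' processing notes, 10.7.3.1 in the file headers) and deposited the median and processed intensities. They also deposited normalized log2 values of the same spots, which were used here. Their Supplementary Methods name limma's normexp (offset 16) with quantile normalization, whereas the deposited log2 values were matched by an offset of 50 to within 0.0258 and by 16 to within 1.63 only. A higher offset draws low values together, so differences of dim genes are understated.

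Each array holds 62976 spots, 59305 of them not controls, of which 95 to 170 per array were outliers and left out. Probes with a log2 value of at least 6 on at least 1 of the 8 arrays were kept (55320), and the brightest by mean stood for a gene (a choice for 9626 genes). Sizes of change therefore depend on the probe. Another probe gave 3.565 against 7.955 for Cd34, 2.68 against 7.59 for Csf2rb and 0.19 against 1.87 for Pear1. For Tdgf1 the other probes changed more than the brightest. Of the 37011 genes tested, 20071 have a symbol, found through the target accession in a RefSeq table (GRCm38.p6). A limma model (limma 3.58.1 under R 4.3.3) of the 4 groups, with 4 residual and 2.86 prior degrees of freedom, gave the progenitor minus Flk1+ contrast and the 3 steps. It was tested on simulated data first. Genes were called at a Benjamini-Hochberg adjusted p of 0.05 or less over all genes tested and at least 2-fold. Folds given as a bound belong to genes not well above background on either array of one population, and are set against the higher of their own signal and the lowest signal well above background (5.85 to 6.25). They are taken from group means and are not limits of a confidence interval.

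Named are the sort markers and Sp1, the 15 largest rises and falls with non-overlapping groups, the members of 21 gene lists (called ones with the 6 largest changes each way, exceptions and uncalled ones) and the leading genes of each step category. Others among them were chosen after their values were seen. A few members of the lists are left out of the text but stay in the counts. The members and lists were chosen with earlier results of these data known, so lists are described with no test. Same-numbered arrays deviated together at correlations of -0.152 to 0.4995 and were not treated as pairs.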

Additional observations from a re-analysis of the deposited data

How the results depend on the processing

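No named gene called over the course changed direction under any alternative. Sp8, not called (0.11), was called at -1.20 with the mean over its probes. For the net change, a Student's t-test called 1573 genes at an unadjusted p of 0.01 (820 higher, 753 lower). After Benjamini-Hochberg adjustment it called 58 (36 and 22). The paper names that test for comparing samples but limma with eBayes for its arrays. In limma the net count of 3145 ran from 2839 to 4160 over the other sources, filters, probe rules, fits and thresholds. At an unadjusted p of 0.01 it was 3137. With each array left out in turn it lay between 2822 and 3197. For Flk1+ to HE1 (3152) the t-test called 1411 and 3. The later steps were less stable. HE1 to HE2 (1013) gave 400 with only the arrays of the contrast, 306 at an adjusted p of 0.01, 173 and 0 by the t-test, and 390 (without HE2 replicate 1) to 1308 (without HE2 replicate 2) with an array left out. HE2 to progenitor (281) gave 170 with the processed signal scaled to the 75th percentile, 0 with only the arrays of the contrast, 525 with all 16 arrays in the fit, 95 at an adjusted p of 0.01, 557 at an unadjusted p of 0.01, 764 by 2-fold alone, 81 and 1 by the t-test, and 61 (without HE2 replicate 2) to 395 (without progenitor replicate 1) with an array left out. The cause was not tested. The alternatives are other sources of the values, filters, probe rules, arrays in the fit, thresholds and tests, an intensity trend in the prior, the replicate number as a block, and each array left out.

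With the replicate number as a block, 3157 genes were called over the course (1583 higher, 1574 lower) and 3172, 978 and 260 at the steps. Of 268 called genes under the naming rule, 266 kept their call under the block, 267 with an offset of 16, 264 with the 75th percentile or the mean over probes, 256 with only the 4 arrays of the contrast, 238 at an adjusted p of 0.01, 130 by the unadjusted t-test, and 234 to 265 with an array left out. The globin count of 10 fell to 4 at an adjusted p of 0.01. By the Student's t-test it was 0, at an adjusted p of 0.05 and at an unadjusted p of 0.01 alike. The number of arrays, 2 per group, limits all of these values.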
